A study of Homo sapiens with 12 samples.

Results

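The response of parental A375 melanoma cells to dabrafenib was described from 4 of the 12 libraries of the series. They were chosen by the cell line and treatment in their labels: 3 libraries of A375 cells given 200 nM dabrafenib and 1 library of A375 cells given the solvent, 0.1% DMSO, for 48 h. A375 is an established human melanoma cell line that carries an activated BRAF kinase, and dabrafenib is an ATP-competitive inhibitor of that kinase. The other two libraries labelled A375 with DMSO came with mouse gene identifiers (31053 genes each) in place of human ones and entered no comparison.

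The series also holds A375-BIR, a BRAF inhibitor-resistant counterpart of A375. It has 3 libraries in 0.1% DMSO and 3 in 200 nM dabrafenib, for 48 h. Their values are given beside many of the genes, and for the others only A375 levels or changes are printed. Cells of all 4 groups were grown in RPMI medium with 10% serum, and how A375-BIR was derived is not given in the sources used here. The labels call the libraries biological replicates without saying what separated the cultures, so p-values measure only the spread between these samples.

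In BRAF-mutant melanoma the kinase cascade RAF, MEK, ERK is active without an upstream signal. ERK then drives transcription factors of the ETS and AP-1 families, cyclin D1 and cell division, and it also induces its own inhibitors, the DUSP phosphatases and the Sprouty proteins, as negative feedback. Loss of BRAF signalling is known to lower these genes first and to move melanoma cells along a scale of differentiation states, from pigmented and melanocytic through neural crest-like, marked by the nerve growth factor receptor NGFR, to an undifferentiated state marked by the receptor AXL.

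The single control set the limits of the comparison. Its file carried another run stamp than the 9 other human libraries, so run and untreated A375 state cannot be told apart. The control held 1999840 reads on genes, and the dabrafenib libraries held 493398, 463378 and 198690, so that 3 counts equalled 1.88 counts per 1000000 (CPM) in the control and 6.19, 6.70 and 16.9 CPM in the treated libraries. Reads outside annotated genes made up 20.1% of the control's reads and 28.6% to 31.0% of those of the 9 other libraries. Reads aligned to more than 1 place made up 52.5% in the control and 39.95% to 49.4% in the others. Mitochondrial transcripts took 15.1% of the gene counts in the control, 10.7%, 11.0% and 15.1% in the dabrafenib libraries, and 4.63% to 7.21% in A375-BIR. MALAT1, a nuclear noncoding RNA, took 2.60% in the control and 5.08%, 5.68% and 8.60% in the dabrafenib libraries.

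Marker lists were summed to check the label of the control. The summed level of 12 melanocyte regulators was 2026 CPM in the control and 4356 to 4871 CPM under dabrafenib, against 517.8 to 652.5 CPM in the 6 A375-BIR libraries. Summed markers of other cell types were low in A375: 10 fibroblast markers reached 18.2 CPM in the control and 28.2 to 39.2 CPM under dabrafenib, and 10 leukocyte and erythroid markers 23.2 CPM and 13.4 to 26.8 CPM. Of 10 keratinocyte markers 8 were at 0 in the control, and the sum of 308.9 CPM was nearly all the desmosomal protein DSP. Of 8 endothelial markers 5 were at 0 in the control (sum 44.6 CPM, against 8.93 to 18.6 CPM under dabrafenib). The 10 neuron and glia markers summed to 222.3 CPM and 399.5 to 462.6 CPM.

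Of 10236 genes tested, 1833 (17.9%) were higher and 2115 (20.7%) lower in the dabrafenib libraries than in the control at an adjusted p under 0.05 (edgeR). With raw library totals as the scaling, which shifts the median of all genes by 0.262 on the log2 scale, 2565 were higher and 1489 lower. Because the control was 1 library, each called gene was set against both A375-BIR groups. In 1083 genes the dabrafenib libraries stood apart alone: they were called in the same direction against all 3 other groups and overlapped with none, while the control did not. In 1883 genes (18.4% of those tested) the control stood apart alone. In 153 genes (1.49%) the control and the dabrafenib libraries both stood apart, at opposite ends with A375-BIR between them. In the other 829 called genes neither group met the rule.

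These shares are the measure for every list below. Dabrafenib libraries stood apart, the opposite-end genes included, above the other groups in 6.01% of all tested genes and below them in 6.07%. The median change of the 575 genes higher under dabrafenib alone was 1.3 on the log2 scale, and that of the 508 lower genes -1.53. The same genes had medians of 0.16 and -0.16 in the response of A375-BIR. The rule selected genes on the A375 change and not on the A375-BIR response, so these medians do not compare the lines.

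**Figure D1:**
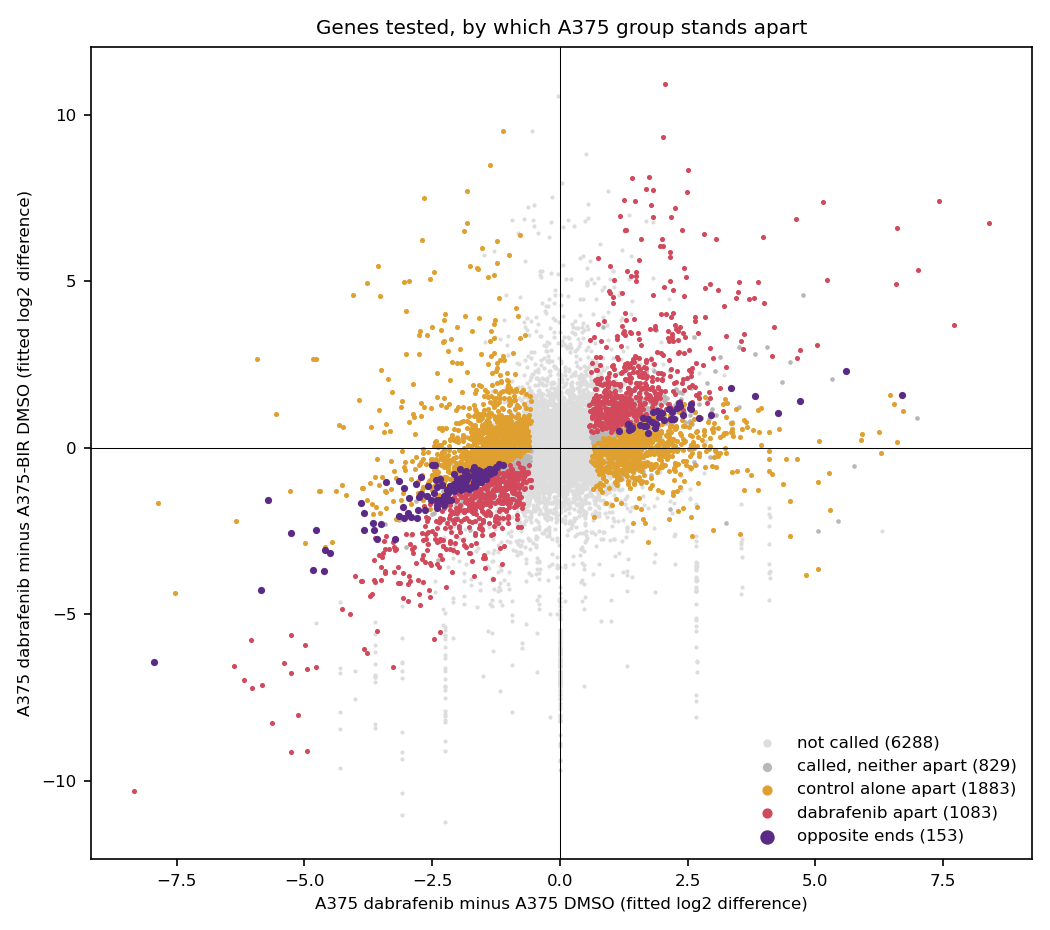
Each point is 1 tested gene, with its fitted log2 difference between A375 with dabrafenib and the A375 control on the horizontal axis and between A375 with dabrafenib and A375-BIR in DMSO on the vertical axis, coloured by class. Of the 1883 genes in which the control alone stood apart, 1230 (65.3%) had dabrafenib libraries called against neither A375-BIR group. In 282 (15%) these libraries lay between the control and both A375-BIR groups, and the other 371 (19.7%) were mixed. The 1083 with dabrafenib apart have the same sign on both axes, as their rule requires.

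Transcription driven by ERK was lower under dabrafenib. Of the 10 genes of the MAPK pathway activity score, a published set of ERK-induced transcripts, 9 were tested. Of these 7 fell (77.8%, against 20.7% of all genes) and 1 rose (11.1%, against 17.9%). Their median change was -2.35, against a median near 0 over all genes. In 2 of them, DUSP6 and CCND1, the dabrafenib libraries stood apart alone, in ETV4 and ETV5 the ends were opposite, and in SPRY4, PHLDA1, DUSP4 and EPHA2 the control stood apart alone. EPHA4 had too few counts to be tested. The ETS core GGAA occurred in all 5 promoter windows found for these genes (300 bases, RefSeq, GRCh38.p14, either strand), as in 95.5% of all 35116 windows, and the longer CCGGAAG in 0 of 5, against 10.3%.

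DUSP6 (chr12:89347232-89353271, GRCh38), a phosphatase that removes the activating phosphates of ERK, read 138.1 CPM in the control and 33.0, 20.1 and 28.2 CPM under dabrafenib. In A375-BIR it read 173.7 to 189.6 CPM in DMSO and 80.2 to 167.9 CPM with dabrafenib. Every dabrafenib library of A375 lay below every other library, and the fitted log2 change was -2.35 (SE 0.33, adjusted p = 7.44e-07). In A375-BIR the change was -0.36 and was not called (adjusted p = 0.401), and the difference between the responses passed the test (-1.99, adjusted p = 0.000334).

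CCND1 (chr11:69641087-69654474) encodes cyclin D1, which carries the growth signal to CDK4 and CDK6. Its level was 278.2 CPM in the control and 39.2, 60.3 and 22.6 CPM in the treated libraries. In A375-BIR, 462.1 to 481.8 CPM were read in DMSO and 431.3 to 504.6 CPM with dabrafenib. The treated A375 libraries again lay below all 7 others, with a change of -2.64 (SE 0.27, adjusted p = 1.28e-09).

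The PEA3 factors ETV1, ETV4 and ETV5 are ETS transcription factors that ERK induces. ETV4 read 136.3 CPM in the control and 6.19, 6.70 and 0 CPM under dabrafenib, with 27.99 to 77.1 CPM in the 6 A375-BIR libraries. ETV5 read 124.3 CPM in the control, 8.25, 13.4 and 5.64 CPM under dabrafenib and 31.1 to 62.6 CPM in A375-BIR. For both genes the control was the highest and the treated libraries were the lowest of all 10, with changes of -4.62 (SE 0.42) and -3.63 (SE 0.37). ETV1 had the same order, with a change of -2.27 (SE 0.37).

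In SPRY4, a Sprouty inhibitor of the cascade, the separation lay with the control. It read 263.7 CPM there, 18.6, 20.1 and 11.3 CPM under dabrafenib, and 30.5 to 50.8 CPM and 14.0 to 44.0 CPM in the 2 A375-BIR groups. The treated A375 libraries overlapped with A375-BIR under dabrafenib, and the change against the control was -3.87 (SE 0.33, adjusted p = 2.48e-11). SPRY2 did not pass the test (124.3 CPM in the control, and 111.4, 111.6 and 95.9 CPM). PHLDA1 fell by 1.04 and DUSP4 by 0.62 on the log2 scale, and both treated levels stayed above A375-BIR. DUSP4 lost its call without dabrafenib replicate 1 (-0.54, adjusted p = 0.102) or replicate 2 (-0.59, adjusted p = 0.0796). It also lost it with DESeq2, raw library totals (-0.36), a mean count of at least 50, thinned counts, a 2-fold limit or the GC trend removed (-0.41). The receptor EPHA2 was the 1 member that rose, from 4.396 CPM to 12.4, 17.9 and 11.3 CPM, and its call (1.67, SE 0.68, adjusted p = 0.0485) was lost without any 1 of the 3 dabrafenib replicates (1.43 to 1.82) and without any replicate of A375-BIR in DMSO or replicate 1 of A375-BIR with dabrafenib.

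**Figure D2:**
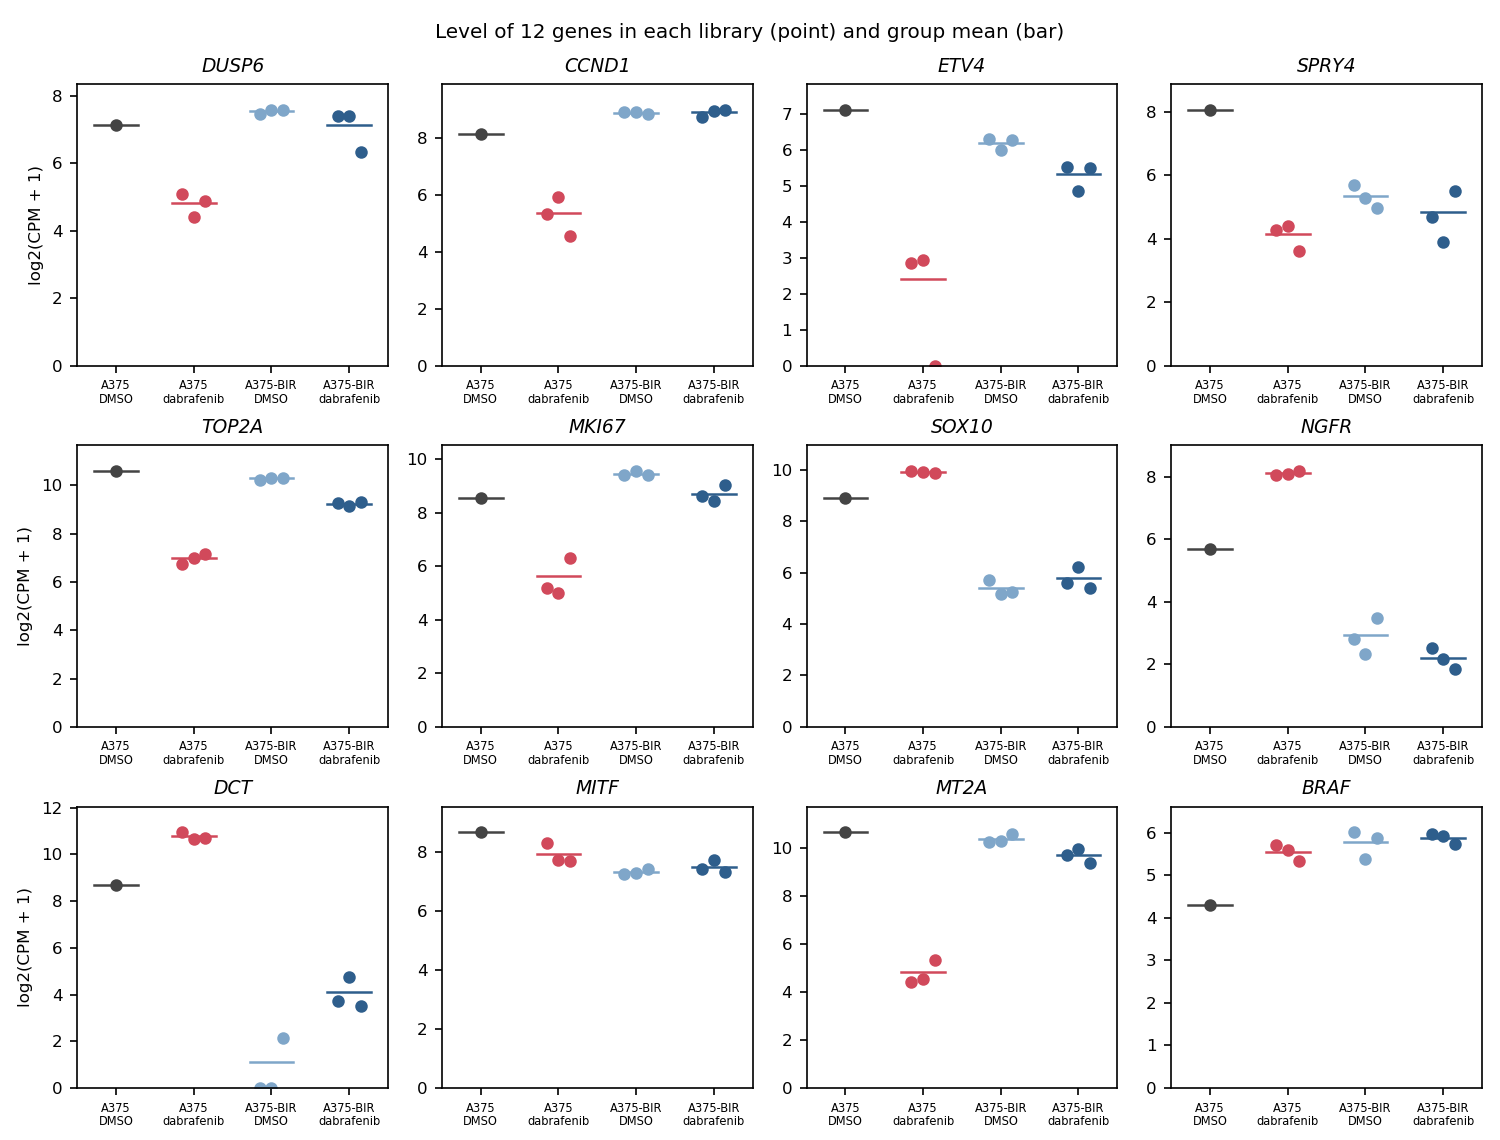
Level of 12 genes as log2(CPM + 1), 1 point per library and a bar for the mean, in the 4 groups. DUSP6, CCND1, TOP2A and MT2A were lowest and SOX10, NGFR and DCT highest in the 3 A375 dabrafenib libraries, whereas in SPRY4 and BRAF the single control lay apart.

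Of 17 other tested genes known to follow ERK early, 8 fell (47.1%, against 20.7% of all genes) and 1 rose (5.88%, against 17.9%). EGR1, an immediate early transcription factor, read 649.9 CPM in the control and 84.6, 73.7 and 95.9 CPM under dabrafenib, and A375-BIR lay between, at 141.7 to 331.8 CPM. Its change was -2.97 (SE 0.26, adjusted p = 2.89e-11). VGF, a neuropeptide precursor, read 892.3 CPM in the control and 28.9, 33.5 and 39.5 CPM in the treated libraries, with 63.8 to 200.8 CPM in A375-BIR. VGF fell most in this list, -4.77 (SE 0.29), and also fell in A375-BIR (-1.04, adjusted p = 0.00234).

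The AP-1 subunit FOSL1 fell by 1.78 on the log2 scale (SE 0.35) and was below all other groups: 108.6 CPM in the control against 26.8, 37.9 and 28.2 CPM, with 59.98 to 169.3 CPM in A375-BIR. IER3, an early response gene, was at 4125 CPM in the control, 536.2, 573.6 and 564.1 CPM under dabrafenib and 302.8 to 812.6 CPM in A375-BIR, so the control alone stood apart. The chromatin protein HMGA2 fell by 1.66 and stood below all other groups. The AP-1 subunit JUN went the other way and read 95.5 CPM in the control and 618.7, 535.6 and 530.3 CPM under dabrafenib, with 181.2 to 288.7 CPM between them in A375-BIR. JUN rose by 2.56 (SE 0.28, adjusted p = 3.43e-09).

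The genes of the cascade itself were split evenly, with 4 of 17 higher and 4 lower (23.5% each way). Over all genes 17.9% were higher and 20.7% lower. In 7 of the 8 called cascade genes the control alone stood apart. With raw library totals 7 rose, and with the trend against GC content removed 2 fell. BRAF, the target of dabrafenib (chr7:140719327-140924928, GRCh38), read 18.8 CPM in the control and 51.6, 46.9 and 39.5 CPM under dabrafenib. A375-BIR had 40.3 to 63.6 CPM in DMSO and 51.8 to 61.9 CPM with dabrafenib. The treated A375 libraries overlapped with A375-BIR in DMSO, and the change of 1.33 (SE 0.37, adjusted p = 0.00459) rested on the low control.

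NRAS (1.93) and MAP2K1 also rose with a low control, and ARAF (-2.19), RPS6KA1 (-3.07), MAPK3 (-1.25) and HRAS (-1.24) fell with a high one. HRAS lost its call without dabrafenib replicate 1 (-0.95), dabrafenib replicate 2 (-1.18) or A375-BIR DMSO replicate 1 (-1.24). It also lost it with raw library totals, DESeq2, a 2-fold limit or the GC trend removed (-0.53). MAPK3 lost its call with DESeq2, a 2-fold limit or the GC trend removed (-0.63). MAP2K1, which encodes MEK1, had 2 counts in the control and a ratio of 13.6 (95% counting interval 3.29 to 120.6). With every library thinned to 198690 counts its change was -0.18 (adjusted p = 0.941).

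Cell division held more genes set apart by the dabrafenib libraries than any other list examined. Of 36 tested genes of G2 and mitosis, 30 fell and none rose, with a median of -2.22, and in 25 of them the dabrafenib libraries stood below all 3 other groups with the control not apart. The lower calls were 83.3% of the list against 20.7% of all genes. In A375-BIR the median was -0.95 and 24 fell. In a culture, fewer dividing cells and less of these RNAs per cell cannot be told apart.

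TOP2A, the topoisomerase that untangles replicated chromosomes, read 1535 CPM in the control and 107.2, 127.2 and 141.0 CPM under dabrafenib. A375-BIR read 1204 to 1276 CPM in DMSO and 570.3 to 626.3 CPM with dabrafenib. The 4 groups did not overlap, in the order control, A375-BIR in DMSO, A375-BIR with dabrafenib and A375 with dabrafenib. The change was -3.65 (SE 0.23, adjusted p = 5.33e-15) in A375 and -1.05 in A375-BIR, with a difference of -2.60.

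MKI67, the proliferation antigen Ki-67, read 375.5 CPM in the control and 35.1, 31.2 and 79.0 CPM in the treated libraries, against 341.1 to 746.9 CPM in A375-BIR. Its change was -3.16 (SE 0.29), compared with -0.76 in A375-BIR. CCNB1, the mitotic cyclin B1, read 98.6 CPM and 16.5, 20.1 and 5.64 CPM, with 46.6 to 140.7 CPM in A375-BIR, and fell by 2.60 (SE 0.37).

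The mitotic kinases followed, PLK1 by -3.07, AURKB by -3.47, AURKA by -2.62 and CDK1, which drives entry into mitosis, by -1.77. CDC20, an activator of the anaphase-promoting complex, changed by -3.73 and the spindle factor TPX2 by -2.40. For each of these 6 genes the treated libraries lay below all 3 other groups. CENPM, a centromere protein, was at 13.8 CPM in the control, at 0 in all 3 treated libraries and at 11.9 to 20.2 CPM in A375-BIR, at least 5.11-fold lower. NCAPH, a condensin subunit, had 3 counts over the treated libraries and a ratio of 17.2 (5.66 to 85.3).

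Promoters of this list shared short motifs. Windows of 300 bases around the RefSeq start site (250 before to 50 after, build GRCh38.p14) were found for 29 members. The cell cycle homology region TTTGAA, a cell cycle element bound by the DREAM complex, was present on either strand in 20 of the 29 (69.0%), against 15.2% of all 35116 windows. The CCAAT box was present in 25 (86.2%), against 34.6%. Both together were found in 18 of 29 (62.1%), against 5.9% of all windows. Such matches describe letters and show no binding. TOP2A and CCNB1 are shown as 2 of the members described here, the first with TTTGAA in its window and the second without. Capitals mark the 2 motifs on either strand, 6 matches in TOP2A (chr17:40417847-40418146, minus strand, printed 5′ to 3′) and 2 CCAAT matches in CCNB1 (chr5:69166900-69167199, plus strand).
TOP2A: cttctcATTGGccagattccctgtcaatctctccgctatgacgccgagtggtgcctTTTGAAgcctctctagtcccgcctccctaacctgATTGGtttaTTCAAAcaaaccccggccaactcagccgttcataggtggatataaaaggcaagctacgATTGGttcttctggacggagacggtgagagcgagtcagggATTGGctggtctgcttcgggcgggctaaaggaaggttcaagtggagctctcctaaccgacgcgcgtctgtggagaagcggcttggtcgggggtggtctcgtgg
CCNB1: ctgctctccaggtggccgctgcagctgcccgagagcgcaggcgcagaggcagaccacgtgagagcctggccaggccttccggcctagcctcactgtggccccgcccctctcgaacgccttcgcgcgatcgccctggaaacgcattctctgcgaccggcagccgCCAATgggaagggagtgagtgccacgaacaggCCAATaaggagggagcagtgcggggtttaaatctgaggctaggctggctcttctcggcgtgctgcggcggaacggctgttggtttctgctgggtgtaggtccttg

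DNA replication genes moved less evenly. Of 25 tested, 13 fell (52%, against 20.7% of all genes) and none rose, with a median of -1.26. The same 25 had a median of 0 in A375-BIR with none called. The dabrafenib libraries stood apart alone in 5 of the 13 and the control alone in 5. RRM2, the small subunit of ribonucleotide reductase, was of the former kind: 59.7 CPM in the control, 14.4, 13.4 and 5.64 CPM under dabrafenib and 61.9 to 123.6 CPM in A375-BIR, with a change of -2.23 (SE 0.40). E2F1, a transcription factor of S phase entry, was of the latter: 58.4 CPM in the control, 8.25, 2.23 and 5.64 CPM under dabrafenib and 1.75 to 23.3 CPM in A375-BIR. The helicase subunit MCM7 (-3.14) and the licensing factor CDT1 (-2.72) lay at opposite ends.

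Of 14 tested genes of CDK inhibitors, D cyclins and the RB family 3 rose and 3 fell. These were 21.4% each way, near the shares over all genes. In all 3 that rose the control alone stood apart. CDKN1A, which encodes p21, read 923.1 CPM in the control and 1039, 899.4 and 744.6 CPM under dabrafenib and was not called, nor was CDKN1B. CDKN2C, an inhibitor of CDK4 and CDK6, fell by 2.67 (SE 0.68) with the control alone apart: 29.5 CPM there, 0, 11.2 and 0 CPM under dabrafenib and 2.59 to 16.1 CPM in A375-BIR. This call was lost with DESeq2. CDK2 was listed with the pigment genes and MITF targets and is not among these 14. It fell by 2.67 with the control alone apart: 776.1 CPM there, 95.9 to 131.7 CPM under dabrafenib and 62.1 to 133.9 CPM in A375-BIR.

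Regulators of the melanocyte lineage were divided. Of 11 tested 5 rose (45.5%, against 17.9% of all genes), and in all 5 the dabrafenib libraries stood above all other groups. Another 4 fell (36.4%, against 20.7%) with the control alone apart. SOX10 (chr22:37970686-37987422), the transcription factor of the neural crest and of melanocytes, read 471.0 CPM in the control and 983.7, 970.8 and 930.8 CPM under dabrafenib. A375-BIR was at 35.3 to 73.5 CPM over both treatments, and SOX10 rose by 1.03 (SE 0.24, adjusted p = 0.000764).

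The zinc finger factor ZEB2 read 154.5 CPM in the control and 1776, 1582 and 1732 CPM under dabrafenib, with 61.0 to 116.5 CPM in A375-BIR. TFAP2A, a partner of MITF in melanocytes, read 190.9 CPM and 1023, 919.5 and 959.0 CPM, with 128.7 to 173.4 CPM in A375-BIR. Both treated sets were far outside the other libraries, with changes of 3.46 (SE 0.30) for ZEB2 and 2.34 (SE 0.25) for TFAP2A. ZEB1, the factor that ZEB2 is known to alternate with, changed the other way by -1.46, from 131.2 CPM to 45.4, 37.9 and 73.3 CPM. It lost its call with thinned counts (-0.41), and with the GC trend removed (-1.81) neither the control nor the dabrafenib libraries stood apart.

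MITF, the master regulator of pigment cells, did not rise. It read 411.3 CPM in the control, 315.5, 212.0 and 208.7 CPM under dabrafenib and 154.2 to 211.7 CPM in A375-BIR. The treated libraries overlapped with A375-BIR under dabrafenib, and the change of -0.71 (SE 0.22, adjusted p = 0.0112) lost its call without dabrafenib replicate 2 (-0.59, adjusted p = 0.0823) and with raw library totals. SOX9 (-1.50) and TFAP2B (-2.70) fell with the control alone apart, and TFAP2B was at 0 in all 6 A375-BIR libraries.

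Some genes of the neural crest-like state rose. NGFR (chr17:49495293-49515017) read 50.2 CPM in the control and 261.9, 270.0 and 287.7 CPM under dabrafenib, with 2.59 to 10.2 CPM in A375-BIR. The 3 treated libraries were the highest of all 10, and the change was 2.43 (SE 0.27, adjusted p = 7.86e-09), with a difference from the A375-BIR response of 3.05. The pioneer factor FOXD3 had no count in the control and 41.2, 26.8 and 39.5 CPM under dabrafenib, at least 18.6-fold higher. SNAI2, a neural crest and migration factor, rose from 10.1 CPM to 53.6, 67.0 and 33.9 CPM (2.43). With the GC trend removed the dabrafenib libraries stood apart in FOXD3 and SNAI2. Of 15 tested members of this list 5 rose (33.3%, against 17.9% of all genes) and 3 fell (20%, against 20.7%). Another 7 were not called, and the median was 0.48. In 4 of the 5 that rose the dabrafenib libraries stood apart, and in all 3 that fell the control alone did.

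Pigment genes diverged among themselves. Of 28 listed, 14 were tested, 3 rose (21.4%, against 17.9% of all genes) and 4 fell (28.6%, against 20.7%). In all 4 that fell and in 1 that rose the control alone stood apart. DCT, the dopachrome tautomerase of melanin synthesis, read 417.0 CPM in the control and 1984, 1596 and 1658 CPM under dabrafenib, with 0 to 3.39 CPM in A375-BIR in DMSO and 10.4 to 26.2 CPM with dabrafenib. The melanosomal glycoprotein GPNMB read 135.0 CPM and 608.4, 638.3 and 631.8 CPM, with 62.6 to 127.7 CPM in A375-BIR. Their changes were 2.07 (SE 0.29) and 2.21 (SE 0.26), and the treated libraries stood apart in both. TYR, the enzyme that starts melanin synthesis, read 34.5 CPM in the control and 41.2, 29.01 and 11.3 CPM under dabrafenib and was not called. PMEL, MLANA and TYRP1 had 39, 1 and 5 counts over all 10 libraries and were not tested.

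The M-box TCATGTG, the element that MITF binds, occurred in 3 of 12 windows found for this list (TYR, DCT and GPNMB) against 2.92% of all windows, and the related letters CACGTG in none of the 12, against 7.26%. The windows of DCT and GPNMB are shown because both rose while MITF fell, and TYR, with the same letters, was not called. Capitals mark the M-box on either strand, 2 in DCT (chr13:94479633-94479932, minus strand, printed 5′ to 3′) and 2 in GPNMB (chr7:23246525-23246824, plus strand).
DCT: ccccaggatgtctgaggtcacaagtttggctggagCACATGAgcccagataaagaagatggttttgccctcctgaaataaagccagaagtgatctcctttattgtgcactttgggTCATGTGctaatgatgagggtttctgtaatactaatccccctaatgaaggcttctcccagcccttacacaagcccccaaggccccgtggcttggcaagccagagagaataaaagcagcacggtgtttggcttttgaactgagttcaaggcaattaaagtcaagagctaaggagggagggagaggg
GPNMB: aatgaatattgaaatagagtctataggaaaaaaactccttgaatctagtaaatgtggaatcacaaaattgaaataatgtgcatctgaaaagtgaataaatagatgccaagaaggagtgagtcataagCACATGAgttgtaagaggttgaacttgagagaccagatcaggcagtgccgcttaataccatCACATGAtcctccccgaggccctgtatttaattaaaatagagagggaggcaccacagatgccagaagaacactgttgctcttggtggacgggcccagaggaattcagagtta

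Of 22 tested genes of the AXL-high, dedifferentiated state 5 rose (22.7%) and 5 fell (22.7%), near the shares over all genes. AXL itself read 10.7 CPM in the control and 4.12, 11.2 and 0 CPM under dabrafenib, against 267.5 to 413.1 CPM in A375-BIR, and the change in A375 (-0.75, SE 0.62) was not called. EGFR read 6.91 CPM and 4.12, 0 and 5.64 CPM, against 172.7 to 250.2 CPM, with a ratio of 2.56 (0.675 to 14.3) between control and treated. Of the 5 that rose, CCN2, ANXA1, TNFRSF12A and PLAUR had the control alone apart, and SNAI2 had the dabrafenib libraries apart. PLAUR lost its call without dabrafenib replicate 2. INHBA, a subunit of activin, was among those that fell with the treated libraries apart, from 910.5 CPM to 121.7, 194.2 and 186.2 CPM (-2.47, SE 0.26), while A375-BIR lay at 458.9 to 881.7 CPM.

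**Figure D3:**
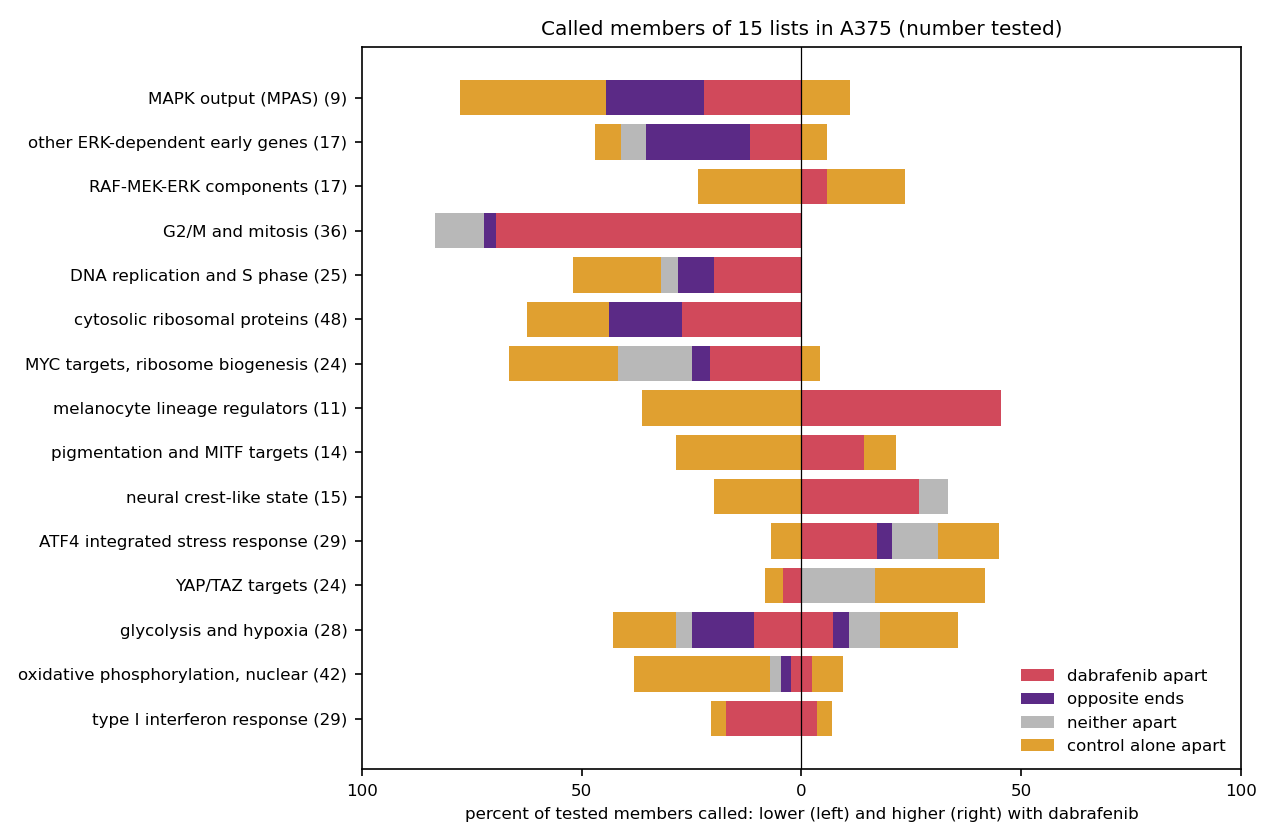
Share of the tested members of each list (number tested in brackets) called lower, to the left, or higher, to the right, in A375 with dabrafenib than in the control, in percent and coloured by which group stood apart. In the G2 and mitosis list 25 of 36 members were set apart by the dabrafenib libraries, whereas 13 of the 16 lower genes of oxidative phosphorylation were set apart by the control.

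Of 15 tested BCL2 family genes, 3 rose (20%, against 17.9% of all genes) and 1 fell (6.67%, against 20.7%). BMF, a BH3-only protein that promotes cell death, read 4.396 CPM in the control and 53.6, 46.9 and 56.4 CPM under dabrafenib, with 0 to 8.75 CPM in A375-BIR. The treated libraries stood apart, and BMF rose by 3.5 (SE 0.56, adjusted p = 6.39e-06). The control's 4.396 CPM came from 7 counts, and with every library thinned to 198690 counts BMF was no longer called. BBC3, which encodes the death protein PUMA, rose by 1.35 (SE 0.28) from the lowest end to the highest. BCL2L11, which encodes BIM, was not called (0.40).

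The deepest fall of any gene with counts in each treated library was that of the metallothionein MT2A (chr16:56608199-56609497), a metal-binding protein induced by zinc. It read 1641 CPM in the control and 20.6, 22.3 and 39.5 CPM under dabrafenib, with 1245 to 1556 CPM in A375-BIR in DMSO and 675.4 to 1011 CPM with dabrafenib. Its change was -6.05 (SE 0.30, adjusted p = 1.12e-17) in A375 and -0.67 in A375-BIR. MT1X, the only other metallothionein tested, had 2 counts over the treated libraries and was lower by a ratio of 31.0 (8.34 to 260.1). Metallothioneins are near-identical copies, and the split of reads between them is uncertain.

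The metal response element was searched as TGCACNC or TGCGCNC on either strand. It occurred in the windows of both MT2A and MT1X, and in 29.6% of all windows. The window of MT2A (chr16:56608334-56608633, plus strand) is shown because of the size of its fall, with its 8 matches in capitals.
MT2A: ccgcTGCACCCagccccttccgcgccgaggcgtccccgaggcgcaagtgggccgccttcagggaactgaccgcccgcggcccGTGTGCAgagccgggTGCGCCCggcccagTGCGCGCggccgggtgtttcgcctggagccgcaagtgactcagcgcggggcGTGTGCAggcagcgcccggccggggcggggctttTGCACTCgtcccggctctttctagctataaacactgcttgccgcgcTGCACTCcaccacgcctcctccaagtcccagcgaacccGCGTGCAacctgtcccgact

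KRT18, a keratin of simple epithelia, had 54.0 CPM in the control and no count in any of the treated libraries, at least 19.99-fold lower. A375-BIR read 157.9 to 256.1 CPM. The potassium channel KCNN4 was at 216.6 CPM in the control, at 0, 8.93 and 0 CPM under dabrafenib and at 49.2 to 75.6 CPM in A375-BIR, and changed by -5.85 (SE 0.45). SLCO4A1, an organic anion transporter, had 1 count over the treated libraries and a ratio of 37.7 (6.48 to 1514).

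Genes with little or no count in the control stood at the other end. ANGPTL7, a secreted angiopoietin-like protein, had none in the control and 82.5, 37.9 and 39.5 CPM under dabrafenib, at least 30.6-fold higher. It was also higher in A375-BIR with dabrafenib (7.76 to 19.2 CPM) than in DMSO (0 to 0.847 CPM). PRELP, a matrix proteoglycan, read 1.26 CPM in the control and 49.5, 49.1 and 67.7 CPM, a ratio of 41.6 (11.0 to 351.6), and 0 to 12.3 CPM in A375-BIR. ASPA, an aspartoacylase, had 1 count in the control, 35.1, 17.9 and 33.9 CPM under dabrafenib and none in A375-BIR.

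Part of the ATF4 stress programme was higher under dabrafenib. ATF4 is the transcription factor made when translation is slowed by amino acid shortage or unfolded protein. Of 29 tested members 13 rose (44.8%, against 17.9% of all genes), 2 fell (6.9%, against 20.7%) and 14 were not called. The median was 1.02 in A375 and 0.49 in A375-BIR, where 8 rose. In 5 of the 13 the dabrafenib libraries stood apart alone. ATF4 itself read 639.2 CPM in the control and 1260, 1290 and 1343 CPM under dabrafenib, with 442.5 to 770.2 CPM in A375-BIR, and rose by 1.02 (SE 0.25).

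Among its targets, the treated libraries stood above every other group in the death factor DDIT3 (1.65, SE 0.24), the asparagine synthetase ASNS (1.71, SE 0.26) and the cystine carrier SLC7A11 (1.51, SE 0.24). DDIT3 read 108.0 CPM in the control and 282.5, 368.2 and 378.0 CPM under dabrafenib. ASNS read 70.3 CPM and 210.3, 247.7 and 236.9 CPM. For DDIT3 the difference from A375-BIR, where it changed by -0.27, passed the test (adjusted p = 4.39e-05), and for SLC7A11 it did not (adjusted p = 0.236). The chromatin protein NUPR1 rose from 8.16 CPM to 88.7, 78.1 and 62.1 CPM (3.25, SE 0.42), with 3.39 to 29.5 CPM in A375-BIR.

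Genes of protein synthesis fell. Of 48 tested cytosolic ribosomal proteins 30 fell (62.5%, against 20.7% of all genes) and none rose, with a median of -1.19. Of 24 genes of ribosome biogenesis 16 fell (66.7%) and 1 rose (4.17%, against 17.9%), with a median of -1.03. In A375-BIR the medians were 0 and 0.06, with none called. With raw library totals as the scaling 26 ribosomal proteins fell and 2 rose, and 11 biogenesis genes fell and 2 rose. Of the 30 ribosomal proteins, 13 were set apart by the dabrafenib libraries, 9 by the control and 8 by both. RPS6 read 1650 CPM in the control, 616.6, 598.1 and 462.6 CPM under dabrafenib and 1405 to 2621 CPM in A375-BIR (-1.54, SE 0.26). RPL12 fell by 1.64 in the same arrangement. RPL6 was set apart by the control, at 635.5 CPM against 129.9, 151.8 and 129.7 CPM and 139.7 to 278.2 CPM in A375-BIR. Ribosomal protein genes have many processed copies, and reads aligned to more than 1 place were tallied outside the genes, so their levels are uncertain.

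In ribosome biogenesis the treated libraries stood below all others in 5 genes. FBL, the methyltransferase fibrillarin, read 580.8 CPM in the control, 187.7, 189.7 and 174.9 CPM under dabrafenib and 364.9 to 734.7 CPM in A375-BIR. DKC1, which modifies ribosomal RNA, changed by -1.50 (SE 0.22), and the nucleolar protein LYAR by -1.95 (SE 0.28). MYC, a known driver of these genes, had 42 counts in all and was not tested.

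**Figure D4:**
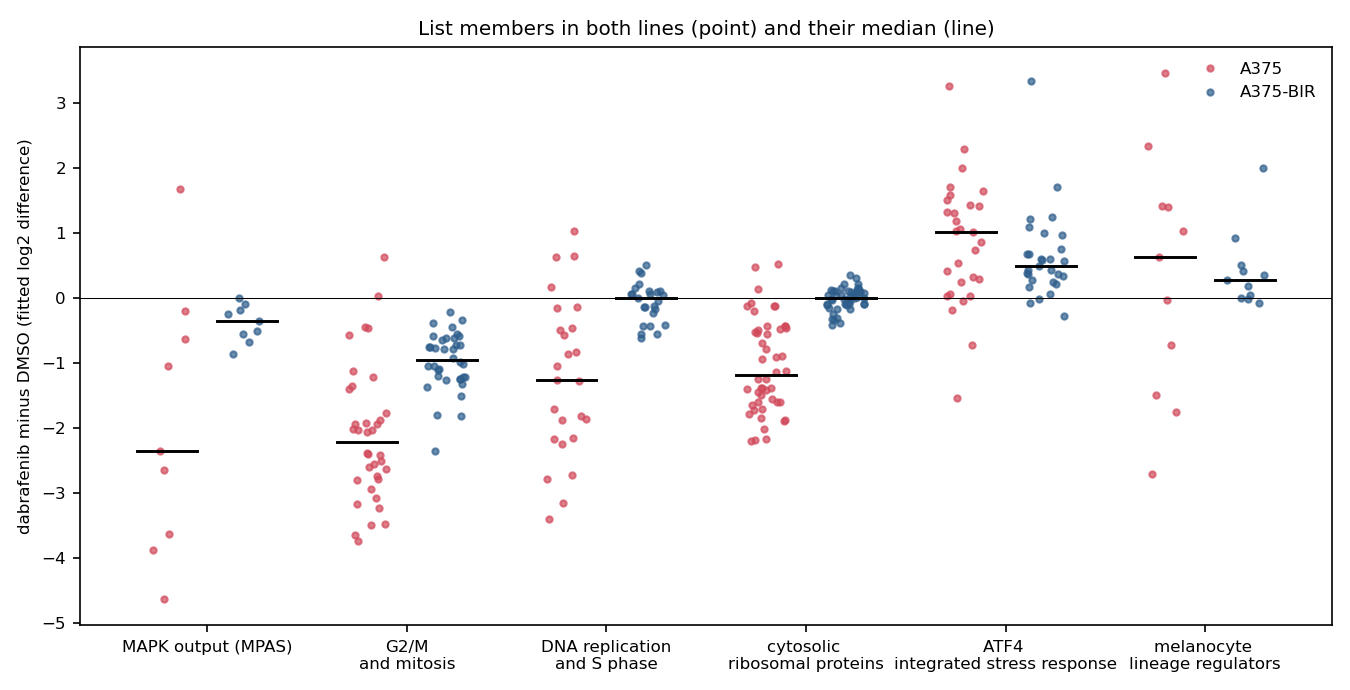
Fitted log2 difference between dabrafenib and DMSO for each tested member of 6 lists (points) and the median of each list (black line), in A375 and in A375-BIR. The medians of the G2 and mitosis list were -2.22 in A375 and -0.95 in A375-BIR, and those of the ribosomal proteins -1.19 and 0.

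Of 29 tested genes of the interferon response 6 fell (20.7%, the same share as over all genes). Another 2 rose (6.9%, against 17.9% of all genes). BST2, an antiviral membrane protein, had 10.7 CPM in the control, none under dabrafenib and 22.01 to 47.6 CPM in A375-BIR, at least 3.95-fold lower. OASL, a sensor of the same response, was at 9.42 CPM in the control and at 0 in the treated libraries, at least 3.49-fold lower. USP18, an inhibitor of the interferon receptor, had 1 count over the treated libraries and a ratio of 17.4 (2.85 to 715.6). Of the members that rose, MX2 read 49.6 CPM in the control, 92.8, 80.3 and 118.5 CPM under dabrafenib and 13.5 to 40.9 CPM in A375-BIR, and IFIT1 rose by 2.14 (SE 0.74) from a low control. Both calls were lost with DESeq2, with a 2-fold limit or without dabrafenib replicate 1, and that of MX2 also without replicate 3. The counts of the members that fell are small, and with every library thinned to 198690 counts none of the 21 members still tested was called lower and 2 were called higher. With raw library totals 6 members rose and 6 fell.

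Adhesion genes were divided. Of 19 tested integrins and adhesion genes 7 rose (36.8%, against 17.9% of all genes) and 6 fell (31.6%, against 20.7%). The dabrafenib libraries stood apart alone in 3 of the 7 and 4 of the 6, and the control alone in 2 each way. The integrin subunit ITGA2 was called higher, with changes of 1.4 to 1.93 over 20 alternatives, and lost its call under none. The integrin subunit ITGA3 read 362.9 CPM in the control, 66.0, 73.7 and 73.3 CPM under dabrafenib and 291.3 to 396.1 CPM in A375-BIR, and changed by -2.36 (SE 0.24). ITGB5 changed by -2.58 (SE 0.30) in the same order, and the actin crosslinker ACTN1 by -3.22 (SE 0.25), from 412.6 CPM to 51.6, 35.7 and 45.1 CPM. The collagen COL5A2 rose by 1.90 (SE 0.29), from 42.1 CPM to 187.7, 149.5 and 118.5 CPM, above A375-BIR at 33.9 to 75.2 CPM.

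At opposite ends, 40 genes were higher and 113 lower under dabrafenib. Apart from those above, ARHGEF10L read 2.51 CPM in the control, 117.5, 122.7 and 163.6 CPM under dabrafenib and 19.99 to 28.0 CPM in A375-BIR (5.6, SE 0.46). ANKRD37, a gene induced by hypoxia, rose by 4.27 and the chaperone DNAJB4 by 3.36. CITED4, a transcriptional cofactor, changed by -5.26 and was at 280.7 CPM in the control, 10.3, 6.70 and 0 CPM under dabrafenib and 28.8 to 53.4 CPM in A375-BIR. The aminotransferase BCAT2 had 40.8 CPM in the control and none under dabrafenib, at least 15.1-fold lower.

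The genes in which only the control stood apart were read separately, because in most of them the dabrafenib libraries were not called against A375-BIR. The rule for this class leaves out genes with dabrafenib apart, so it sets part of this share. A missing call also does not show equal levels. In 1230 of the 1883 (65.3%) the treated A375 libraries were called against neither A375-BIR group, in 282 (15%) they lay between the control and both A375-BIR groups, and the other 371 (19.7%) were mixed. GAPDH, a glycolytic enzyme often used as a reference, read 18060 CPM in the control, 3273, 3553 and 4186 CPM under dabrafenib and 3544 to 4945 CPM in A375-BIR. ACTB, beta-actin, read 1206 CPM in the control, 264.0, 196.4 and 220.0 CPM and 255.4 to 311.8 CPM. Against A375-BIR with dabrafenib the treated A375 libraries differed by -0.20 in GAPDH and -0.23 in ACTB on the log2 scale, and against the control by -2.30 and -2.40. Both have processed copies.

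Of 42 nuclear genes of oxidative phosphorylation 16 fell (38.1%, against 20.7% of all genes), 4 rose (9.52%, against 17.9%) and 22 were not called. The control alone stood apart in 16 of the 20 called. Of 28 tested genes of glycolysis and hypoxia 10 rose (35.7%, against 17.9% of all genes) and 12 fell (42.9%, against 20.7%). The control alone stood apart in 9 and the dabrafenib libraries alone in 5, and 5 lay at opposite ends. Without dabrafenib replicate 2, 6 of the 28 rose. ATP5MC1, a subunit of the ATP synthase, read 509.9 CPM in the control, 74.2, 58.0 and 39.5 CPM under dabrafenib and 56.9 to 93.7 CPM in A375-BIR. Of 24 tested targets of YAP and TAZ 10 rose (41.7%, against 17.9% of all genes) and 2 fell (8.33%, against 20.7%). In 6 of the 10 the control alone stood apart. AMOTL2 read 15.1 CPM in the control, 152.6, 98.2 and 95.9 CPM under dabrafenib and 164.4 to 260.7 CPM in A375-BIR. CCN2, also of this kind, read 8.79 CPM, then 57.7, 53.6 and 39.5 CPM, and 95.8 to 274.2 CPM. The glucose carrier SLC2A1 rose by 1.95 from a low control, whereas VEGFA, the vascular growth factor, rose by 1.3 and was above all other groups.

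The lowest and highest changes of this class came with very low counts on 1 side. CEMIP, a hyaluronan-binding protein, read 111.8 CPM in the control and had 3 counts over the treated libraries, a ratio of 41.4 (13.9 to 202.5), with 0.952 to 8.75 CPM in A375-BIR. SPRR2D, a cornified envelope protein, read 65.3 CPM in the control, and 2.59 CPM was the highest value in the other 9 libraries. In the other direction CLP1, an RNA kinase, had no count in the control, 10.3, 20.1 and 28.2 CPM under dabrafenib and 6.05 to 10.5 CPM in A375-BIR, at least 9.08-fold higher. NDUFB3 had 1 count in the control, 18.6, 22.3 and 16.9 CPM under dabrafenib and 20.3 to 36.7 CPM in A375-BIR.

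Base composition moved with the control. Across 10219 genes the Spearman correlation of a gene's GC content with the log2 difference was -0.35 for A375 with dabrafenib against the control, 0.38 for the control against A375-BIR in DMSO, 0.07 for A375 with dabrafenib against A375-BIR in DMSO and 0 for the A375-BIR response. These comparisons share libraries, and the values describe these libraries. With genes grouped by GC content, from the lowest group (median 38.1%) to the highest (median 60.8%), the median change against the control went from 0.50 to -0.67, while A375 with dabrafenib against A375-BIR in DMSO stayed between -0.14 and 0.08.

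The class with the control alone apart had median GC contents of 41.8% in its higher and 55.9% in its lower genes, and the class with dabrafenib apart 45.6% and 49.4%. With the GC trend removed, an alternative chosen after seeing the data, 832 of the 1083 genes (76.8%) with dabrafenib apart kept that class, and so did 1070 of the 1883 (56.8%) with the control alone apart, of which 554 were no longer called. The G2 and mitosis list, with a median GC content of 42.9%, then had 31 lower genes, and the ribosomal proteins 31, of which 22 had the dabrafenib libraries apart. The part of base composition, run or depth in any result was not tested.

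**Figure D5:**
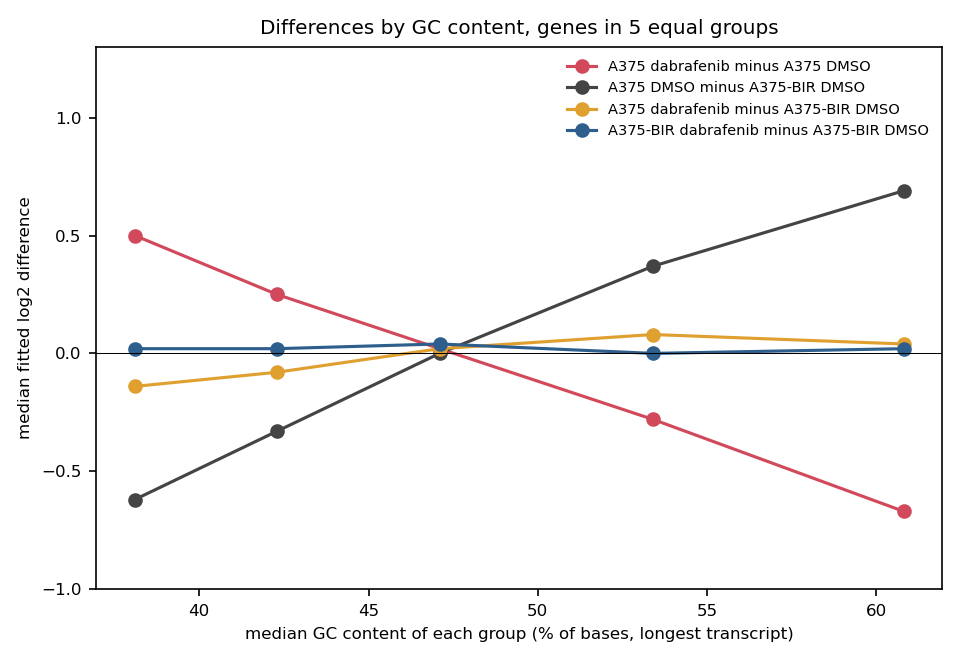
Median fitted log2 difference in equal groups of genes ordered by GC content (median of each group in percent on the horizontal axis), for 4 comparisons. Both lines that involve the lone control slope, from 0.50 to -0.67 for A375 with dabrafenib against it, and both lines without it stay between -0.14 and 0.08.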

How the data were processed

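The data were QuantSeq 3′ FWD libraries made from total RNA and sequenced in single-end mode, per the labels' protocols. The deposited files held raw read counts per gene, and the build was hg38 per the submitters' processing notes. Which aligner, counter, annotation and strandedness the submitters used is not given in the sources used here. The 2 files with mouse identifiers were left out. Gene symbols and positions came from GENCODE (GRCh38) for 33132 of 33694 listed genes, GC content from the same transcripts, and promoter windows from RefSeq (GRCh38.p14).

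Counts of the 10 human libraries entered 1 model with 4 groups in edgeR 4.0.16 (R 4.3.3, limma 3.58.1): TMM scaling, filterByExpr with a minimum of 10, and the quasi-likelihood test with Benjamini-Hochberg adjustment over 10236 genes. It had 6 residual degrees of freedom, and the lone control is assumed to vary like the other groups. Genes were called at an adjusted p under 0.05. Levels are counts per 1000000 of the TMM-scaled total (CPM), and SE is the log2 change divided by the square root of its F statistic. Folds against a group at 0 use a floor of 3 counts over the group, and ratios on 1 to 3 counts carry a 95% exact interval for counting error only. The fit was also run on simulated counts drawn from a common mean per gene. They held no run, GC or cell line difference in the control, so these limits were not covered.

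The members, lists and tests were chosen with earlier results of these data known. Named genes were the key genes, the 12 highest and 12 lowest with dabrafenib apart, 8 and 8 with the control apart and 6 and 6 at opposite ends (at least 10 CPM in the higher A375 group), and, of each list described, up to 4 called genes taken by smallest p. Another 28 genes, among them HMGA2, MAP2K1, MAPK3, HRAS, PLK1, CDC20, E2F1, ZEB1, ATF4, RPS6, RPL12, SLC2A1 and VEGFA, were chosen after their values were seen, as were the motifs other than the ETS core and the M-box. Alternatives were other scalings, DESeq2 1.42.0, other filters, thinned counts, a 2-fold limit, left-out replicates, a replicate block and removal of the GC trend. A few genes are not reported here.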

Additional observations from a re-analysis of the deposited data

Results flagged for a closer look

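The A375 response was set against the A375-BIR response in the same model (A375 minus A375-BIR, log2 scale), and the difference passed the test in 17 of 31 tested key genes, against 22.6% of all genes. Among genes of ERK output and early response it was -1.99 for DUSP6, -2.65 for CCND1, -3.76 for ETV4, -3.08 for ETV5, -1.94 for ETV1, -3.19 for SPRY4, -0.79 for PHLDA1, -2.45 for EGR1 and -1.18 for FOSL1. Among cell cycle genes it was -2.60 for TOP2A, -2.41 for MKI67, -1.69 for CCNB1 and -1.69 for RRM2. Among lineage genes it was 3.05 for NGFR, 1.54 for GPNMB and -0.90 for MITF, and for BRAF it was 1.2. Every difference uses the lone control, whose run and untreated A375 state cannot be told apart. The control stood apart alone in BRAF, MITF, PHLDA1 and SPRY4, and with the dabrafenib libraries at the other end in ETV1, ETV4, ETV5 and EGR1.

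The 2 files of A375 with DMSO that list mouse genes held 224221 and 652439 gene counts. They entered no comparison, and the labels name no mouse material.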

How the results depend on the processing

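The counts of genes higher, lower, with dabrafenib apart, with the control alone apart and at opposite ends were 1833, 2115, 1083, 1883 and 153. They became 999, 1216, 652, 880 and 69 with DESeq2, 818, 851, 528, 790 and 100 with a mean count of at least 50 (3336 genes tested), 569, 840, 404, 566 and 41 with every library thinned to 198690 counts (6893 genes tested), and 421, 613, 201, 352 and 4 against a 2-fold limit. Leaving out 1 replicate gave 1400 to 2135, 1691 to 2388, 833 to 1228, 1526 to 2122 and 105 to 213. RLE scaling, raw totals, a looser filter, the A375 libraries alone, exclusion of mitochondrial genes with MALAT1 and removal of the GC trend kept each count within 1.5 times, where it could be computed. Members changed more than counts. With raw totals 77%, 73.2% and 41.8% of the dabrafenib-apart, control-alone and opposite-end genes kept their class. With the GC trend removed 76.8%, 56.8% and 46.4% did, and 72 opposite-end genes became dabrafenib apart. ETV4 and CDT1 were among these 72, and ETV1 moved to the control alone apart. The lone control cannot be left out.

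With the replicate number as a block the counts were 1477, 1819, 977, 1456 and 110. Same-numbered libraries correlated by -0.22 to 0.15 over 9 pairs after group means were removed. Pairs with different numbers were not computed, so whether a number marks a shared culture or batch cannot be told.

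Of 217 named genes 208 were called: 138 kept their call under every alternative, 68 lost it at least once and 2 changed sign when thinned, CHRDL1 (1.95, adjusted p = 0.664) and MAP2K1 (-0.18, adjusted p = 0.941). The cause was not tested. The 2-fold limit ended 57 of these calls, thinning 32, DESeq2 18 and leaving out dabrafenib replicate 2 another 13. In dabrafenib replicate 3, 3 counts equal 16.9 CPM, and the part of depth in these lost calls was not tested.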

Other observations

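Of 24 tested p53 targets 8 were higher (33.3%, against 17.9% of all genes) and 2 lower (8.33%, against 20.7%). Without dabrafenib replicate 1 or replicate 2, 5 were higher. PPM1D, a phosphatase that damps p53 signalling, read 6.28 CPM in the control and 39.2, 31.2 and 28.2 CPM under dabrafenib, with 6.05 to 12.9 CPM in A375-BIR, and rose by 2.41 (SE 0.52) with the dabrafenib libraries apart. GDF15, a secreted stress factor, went the other way, from 5739 CPM to 1145, 1388 and 1461 CPM (-2.11, SE 0.37), and A375-BIR lay lower still at 141.8 to 528.3 CPM.

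Of 12 tested genes of class II antigen presentation 2 rose (16.7%, against 17.9% of all genes) and 1 fell (8.33%, against 20.7%). HLA-DPA1 read 308.9 CPM in the control and 523.8, 555.7 and 468.2 CPM under dabrafenib, with 26.2 to 59.98 CPM in A375-BIR, a change of 0.75 (SE 0.23). The HLA genes have close paralogs, so this level is uncertain. The nuclear noncoding RNA KCNQ1OT1 read 697.0 CPM in the control and 1413, 1379 and 1980 CPM under dabrafenib, above the 458.9 to 1048 CPM of A375-BIR, a change of 1.18 (SE 0.32).

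The receptor kinase DDR1 rose by 1.39 (SE 0.25), from 81.0 CPM to 212.4, 212.0 and 214.4 CPM, against 42.3 to 79.97 CPM in A375-BIR. EPHB2, an ephrin receptor, had 3 counts over the treated libraries and was lower by a ratio of 9.30 (2.96 to 47.0), with 38.9 to 77.6 CPM in A375-BIR.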
